A study of Homo sapiens with 6 samples.

Results

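Plasminogen activators are serine proteases that turn the circulating zymogen plasminogen into plasmin, a broad protease that dissolves fibrin and opens the matrix around cells. Urokinase works at the cell surface on its receptor, and serpins, which are suicide inhibitors of proteases, bind the activators and are cleared with them by endocytic receptors. Membrane-anchored and secreted metalloproteinases cut collagens and other matrix proteins next to this system, the tissue inhibitors of metalloproteinases (TIMPs) hold them in check, and tissue transglutaminase cross-links matrix proteins. These genes are widely studied in gastric carcinoma because tumour cells use them to move through tissue.

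The 9 genes described here are the activators PLAU and PLAT, the receptor PLAUR, the serpins SERPINE2 and SERPINB5, the membrane metalloproteinase MMP14, the inhibitors TIMP1 and TIMP2, and the transglutaminase TGM2. They were taken by gene name from a table of 56303 gene entries, and all 9 were found and passed the filter on low counts that left 23689 genes for testing. The names had been picked with the difference between the groups in view. That difference is therefore given as a description for these genes, without p-values.

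RNA came from AGS, a long-established cell line of human gastric adenocarcinoma, grown in medium with serum. In 3 libraries SRSF2, an SR protein that guides exon inclusion during splicing, had been knocked down. Their names read siSRSF, with the prefix used for small interfering RNA, and they are called siSRSF2 here after the gene that the labels give as knocked down. The other 3 libraries came from AGS cells labelled WT, and the labels do not say whether these received a control siRNA. Nor do they say whether replicates were separate cultures, so errors and p-values reflect only how these samples vary, which could be technical variation.

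Library totals were 26610937 to 36651623 counts in siSRSF2 and 47518943 to 50021152 counts in WT. A level in CPM (counts per 1000000, scaled by TMM) of 0.0630 to 0.110 corresponds to 3 counts in a library, counting error only. SRSF2 itself had 21.6, 21.8 and 24.9 CPM in siSRSF2 libraries, against 44.5, 46.4 and 44.1 CPM in WT libraries, with a log2 fold change of -0.98 (SE 0.064). Of 7 epithelial markers, summed levels were 3693 to 3956 CPM in siSRSF2 and 4130.1 to 4547 CPM in WT, nearly all from KRT8 and KRT18. KRT8 was called lower (log2 fold change -0.22), and the claudin genes CLDN7 (10.0 ± 0.481 CPM in siSRSF2 and 1.70 ± 0.114 CPM in WT) and CLDN4 (4.99 ± 0.974 CPM in siSRSF2 and 1.45 ± 0.335 CPM in WT) were called higher (SD, n = 3 each). The other 4 epithelial markers were not called, and of these the adhesion gene CDH1 averaged 0.276 CPM in siSRSF2 and 0.219 CPM in WT. Among markers of other cell types, 10 fibroblast genes summed to 83.6 to 88.7 CPM in siSRSF2 and 73.5 to 75.3 CPM in WT, with 6 of 9 tested called higher, COL1A1, COL3A1 and DCN among them, and 2, FAP and THY1, called lower. Among leukocyte genes, CD68, which many cell types express, averaged 25.5 ± 1.59 CPM in siSRSF2 and 24.1 ± 0.794 CPM in WT (SD, n = 3 each), and PTPRC, which marks leukocytes at large, averaged 0.169 CPM in siSRSF2 and 0.0706 CPM in WT. The 6 endothelial genes summed to 1.58 to 2.66 CPM in siSRSF2 and 3.46 to 3.71 CPM in WT, and of 3 tested, PECAM1 (log2 fold change -2.03) and CDH5 (-1.21) were called lower. No marker had 0 counts in all 6 libraries, and the part of other cell types in the levels below was not tested. In bulk RNA, fewer cells with a transcript and less transcript per cell cannot be told apart.

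Promoter sequence is shown for 3 of the genes whose RNA differed, 2 that were lower in siSRSF2 cells and 1 that was higher, because known control elements of urokinase receptor and metalloproteinase genes lie near their start sites. RefSeq (GRCh38.p14) gave 8 start sites for 6 of the 9 genes, MMP14, PLAU, PLAUR, SERPINB5, SERPINE2 and TIMP1. Bases that lie in exons of the deposited annotation are left out, apart from a short site in PLAUR. The lines give the sequence 5′ to 3′ on the gene's strand, with matches to searched motifs in capitals.
PLAUR, AP-1 site and flanks, chr19:43670338-43670366, minus strand: tcacaactccaTGAGTCAgggccgagcca
SERPINE2, downstream start, chr2:224031479-224031728, minus strand: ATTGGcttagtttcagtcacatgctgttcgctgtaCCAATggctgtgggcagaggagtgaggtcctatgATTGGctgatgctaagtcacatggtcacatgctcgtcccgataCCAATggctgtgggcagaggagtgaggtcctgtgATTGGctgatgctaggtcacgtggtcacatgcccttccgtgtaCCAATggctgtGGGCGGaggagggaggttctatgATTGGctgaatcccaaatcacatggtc
MMP14, chr14:22836335-22836556, plus strand: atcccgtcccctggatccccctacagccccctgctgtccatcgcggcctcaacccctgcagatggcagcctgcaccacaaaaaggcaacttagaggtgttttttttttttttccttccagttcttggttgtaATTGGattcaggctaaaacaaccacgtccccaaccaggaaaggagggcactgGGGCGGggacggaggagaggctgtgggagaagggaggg

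The motifs were searched on both strands in the 250 bases before each start site. The AP-1 motif TGAGTCA, whose other strand reads TGACTCA, was present in 4.20% of 35114 RefSeq windows of this length and in 1 of the 8 windows of these genes, that of PLAUR, where it begins 186 bases before the start. The CCAAT motif, which reads ATTGG on the other strand, was in 32.0% of all windows and in 3 of the 8. These were the windows of MMP14, of the downstream start of SERPINE2 and of the upstream start of PLAU. The upstream start of SERPINE2 had no match to it. The downstream SERPINE2 window held 7 copies in alternating orientation, set in a stretch that repeats itself, and MMP14 held 1. GC boxes (GGGCGG) stood in 42.6% of all windows and in 6 of the 8, and in SERPINB5 a pair of them overlapped by a base. TATAAA (10.7% of all windows), the TEAD motif GGAATG (11.9%) and the ETS motif CCGGAAG (8.52%) matched none of the 8. A match is a string of letters, and binding there was not measured.

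All 9 genes passed the threshold for a difference (edgeR adjusted p under 0.05 over the whole table, "called" below), 6 lower and 3 higher in siSRSF2. Over all tested genes 29.0% were called lower and 30.1% higher, and since the names were chosen on this contrast nothing is read from their count. TGM2 and SERPINE2 were over 2-fold lower, as were 5.91% of all genes, and no gene of the 9 was over 2-fold higher, against 13.4% of all genes. In all 9 the 3 siSRSF2 libraries did not overlap the 3 WT libraries, which held for 31.2% of all genes in the lower and 32.5% in the higher direction. The median log2 fold change of the 9 was -0.39, against 0.02 over all genes tested. In a test against a change of 1.2-fold, PLAU, MMP14, TIMP1 and TIMP2 were no longer called. The sizes spanned a wide range, from -3.43 for TGM2 to 0.70 for PLAT.

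**Figure D1:**
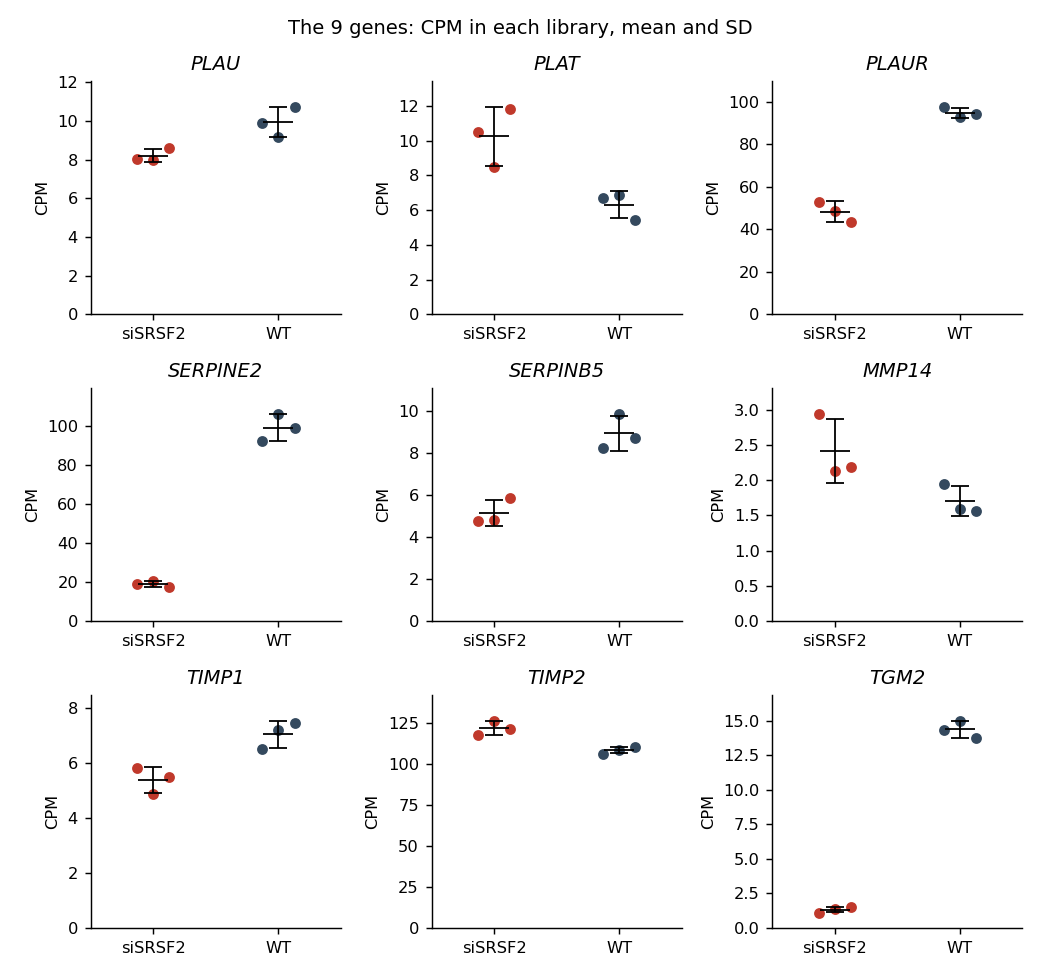
CPM of each of the 9 genes in the 3 siSRSF2 libraries (left) and the 3 WT libraries (right), each point a library, with the mean and SD; every vertical axis starts at 0. TGM2 and SERPINE2 show the widest separation, with siSRSF2 means of 1.32 and 19.0 CPM against WT means of 14.4 and 99.1 CPM.

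Urokinase, encoded by PLAU (chromosome 10, 73909177 to 73917497, plus strand, 13 merged exons), is the activator used on cell surfaces. PLAU had 218, 308 and 298 counts, or 8.02, 7.99 and 8.60 CPM, in siSRSF2 libraries, against 472, 419 and 509 counts, or 9.91, 9.17 and 10.7 CPM, in WT libraries. The siSRSF2 values lay close together just under the WT values, and the nearest libraries of the groups were 1.07-fold apart. The log2 fold change was -0.28 (SE 0.099). With scaling by library totals and no TMM factors the groups overlapped, and PLAU was then no longer called (log2 fold change -0.14). The call also ended without siSRSF2 replicate 1 (-0.26) and without WT replicate 3 (-0.23). Exons of C10orf55 on the opposite strand cover 31.1% of the PLAU exon length. C10orf55 averaged 3.39 ± 0.214 CPM in siSRSF2 and 3.33 ± 0.379 CPM in WT (SD, n = 3 each), and without a stated strand setting, reads in the shared part cannot be told apart.

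Tissue-type activator, encoded by PLAT (chromosome 8, 42175233 to 42207724, minus strand, 16 merged exons), is best known for dissolving clots, since it acts on fibrin. PLAT moved in the opposite direction to PLAU, with 10.5, 8.46 and 11.8 CPM in siSRSF2 libraries, against 6.67, 6.85 and 5.42 CPM in WT libraries. All siSRSF2 values exceeded all WT values, by at least 1.23-fold, but their spread was wide, at 16.4% of the mean against 12.4% in WT. The log2 fold change was 0.70 (SE 0.12), a 1.62-fold higher level.

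Compared per exon length (FPKM, the CPM per kilobase of exon), the summed level of both activators hardly differed between groups. PLAU and PLAT together came to 4.31, 3.99 and 4.70 FPKM in siSRSF2 libraries, against 4.37, 4.14 and 4.45 FPKM in WT libraries. The groups overlapped, and the mean ratio was 1.002. PLAT contributed 35.6% ± 3.13 of this sum in siSRSF2 and 22.1% ± 3.40 in WT (SD, n = 3 each). The PLAU to PLAT ratio was 1.72, 2.12 and 1.63 in siSRSF2 libraries, against 3.33, 3.0 and 4.44 in WT libraries. Per exon length PLAU was thus the higher in every library, but that order rests on the merged exon lengths used, 2950 bases for PLAU and 6618 for PLAT. In CPM, PLAT was above PLAU in every siSRSF2 library, with means of 10.3 and 8.21 CPM, and below it in every WT library.

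PLAUR (chromosome 19, 43646095 to 43670547, minus strand, 10 merged exons) encodes the lipid-anchored urokinase receptor, which concentrates the protease on the membrane and also binds vitronectin. It had 1437, 1878 and 1500 counts, or 52.9, 48.7 and 43.3 CPM, in siSRSF2 libraries, against 4646, 4241 and 4460 counts, or 97.5, 92.8 and 94.0 CPM, in WT libraries. The groups were clearly apart, with a gap of 1.75-fold between the nearest libraries and a log2 fold change of -0.97 (SE 0.059). The receptor was therefore lower by more than its ligand: the PLAU to PLAUR ratio per exon length was 0.229, 0.248 and 0.300 in siSRSF2 libraries, against 0.153, 0.149 and 0.172 in WT libraries. These ratios do not depend on how libraries are scaled.

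SERPINE2 (chromosome 2, 223975112 to 224039319, minus strand, 13 merged exons) encodes protease nexin-1, a serpin that inhibits thrombin, urokinase and plasmin at the cell surface. It had 515, 787 and 611 counts, or 19.0, 20.4 and 17.6 CPM, in siSRSF2 libraries, against 4385, 4851 and 4696 counts, or 92.0, 106 and 99.0 CPM, in WT libraries. Every siSRSF2 library was far below every WT library, and the nearest were 4.51-fold apart. The log2 fold change was -2.38 (SE 0.064), a 5.21-fold lower level, and 57 genes of the whole table were called with a larger fall.

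SERPINB5 (chromosome 18, 63476761 to 63505085, plus strand, 9 merged exons) encodes maspin, a serpin-fold protein of epithelial cells that does not inhibit proteases in the usual way. SERPINB5 had 4.78, 4.83 and 5.86 CPM in siSRSF2 libraries, against 8.23, 9.87 and 8.70 CPM in WT libraries. The groups were separate, with siSRSF2 replicate 3 the nearest to WT, and the log2 fold change was -0.79 (SE 0.12).

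SERPINE2 differed by far more than the activators' sum did. Per exon length, the summed activators over SERPINE2 gave 2.02, 1.74 and 2.37 in siSRSF2 libraries, against 0.422, 0.347 and 0.400 in WT libraries, a 5.24-fold higher mean ratio in siSRSF2. By this measure the activators' sum was above SERPINE2 in every siSRSF2 library and below it in every WT library. That order depends on the exon lengths used, 2950 bases for PLAU, 6618 for PLAT and 8891 for SERPINE2. These lengths merge all annotated exons and need not be those of the transcripts present. In CPM, the siSRSF2 means were 8.21 for PLAU, 10.3 for PLAT and 19.0 for SERPINE2. For the activators singly, the PLAU to SERPINE2 ratio averaged 1.31 ± 0.148 in siSRSF2 and 0.304 ± 0.0377 in WT, and the PLAT to SERPINE2 ratio averaged 0.733 ± 0.172 in siSRSF2 and 0.0859 ± 0.0120 in WT (SD, n = 3 each).

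**Figure D2:**
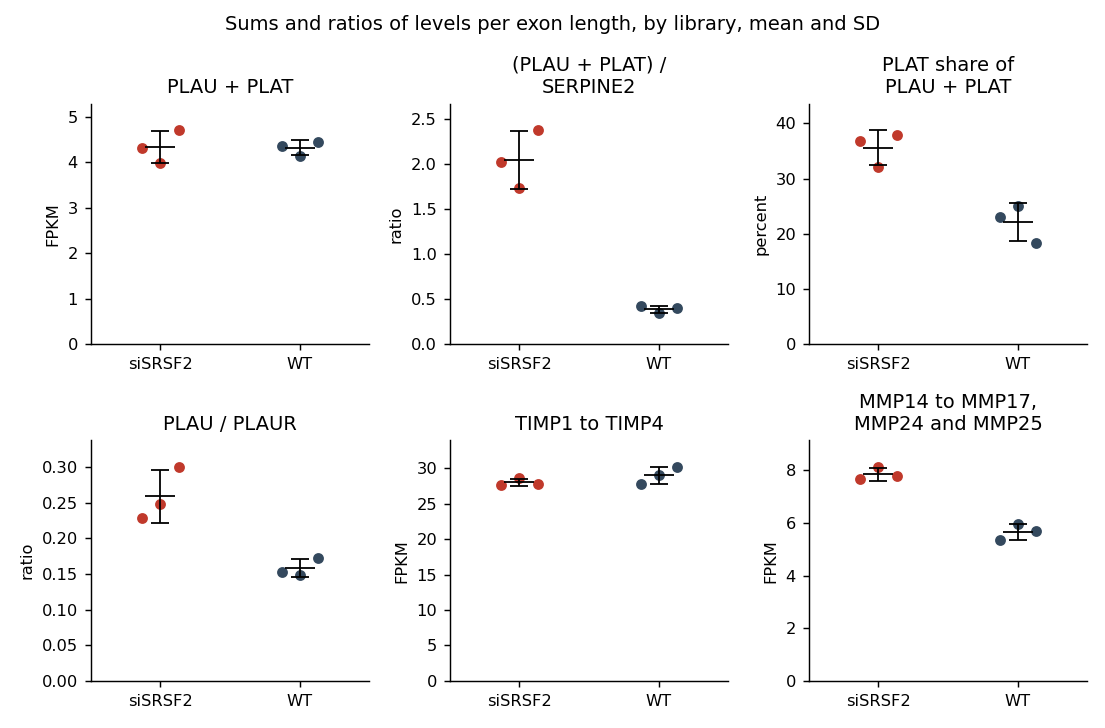
Summed FPKM of the activators, of the 4 TIMP genes and of 6 membrane-type metalloproteinases, with the activator sum over SERPINE2, the PLAT share in percent and the PLAU to PLAUR ratio, in siSRSF2 (left) and WT (right); points are libraries, bars the mean and SD. The activator sum overlaps between groups, at 4.33 FPKM in siSRSF2 and 4.32 FPKM in WT on average, while its ratio to SERPINE2 is 2.04 in siSRSF2 and 0.390 in WT.

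MMP14 (chromosome 14, 22836557 to 22849027, plus strand, 12 merged exons) encodes MT1-MMP, a membrane-anchored collagenase that activates the zymogen of MMP2 in a complex with TIMP2. MMP14 had 80, 82 and 76 counts, or 2.94, 2.13 and 2.19 CPM, in siSRSF2 libraries, against 93, 73 and 74 counts, or 1.95, 1.60 and 1.56 CPM, in WT libraries. The siSRSF2 values were all higher, but siSRSF2 replicate 1 stood above the other 2 and the nearest libraries were 1.09-fold apart. The log2 fold change was 0.49 (SE 0.20), the least precise of the 9. It was 0.35 without siSRSF2 replicate 1, where MMP14 was no longer called, nor was it called without WT replicate 2 (0.44), without WT replicate 3 (0.43), without the filter on low counts (0.42) or by DESeq2 (0.49).

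TIMP1 (chromosome X, 47582313 to 47586789, plus strand, 6 merged exons) encodes a secreted inhibitor of most metalloproteinases. TIMP1 had 5.82, 4.88 and 5.48 CPM in siSRSF2 libraries, against 6.51, 7.20 and 7.46 CPM in WT libraries. The groups lay next to each other without overlap, 1.12-fold apart at the nearest, with a log2 fold change of -0.39 (SE 0.12). With library totals alone the value was -0.26 and TIMP1 was no longer called.

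TIMP2 (chromosome 17, 78852977 to 78925387, minus strand, 6 merged exons) encodes the inhibitor that also serves MMP14 as a bridge to the MMP2 zymogen. It had 3207, 4882 and 4201 counts, or 118, 127 and 121 CPM, in siSRSF2 libraries, against 5075, 4960 and 5234 counts, or 107, 109 and 110.3 CPM, in WT libraries. The difference was small and even among libraries, with a log2 fold change of 0.17 (SE 0.046), and the call ended when genes of any count above 0 were kept (0.10). TIMP2 exons share 3.52% of their length with CEP295NL on the same strand, which averaged 63.8 ± 3.32 CPM in siSRSF2 and 53.3 ± 0.620 CPM in WT (SD, n = 3 each), and 6.52% with the opposite-strand transcript RP11-323N12.5.

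TIMP1 and TIMP2 therefore differed in direction, and the TIMP2 to TIMP1 ratio per exon length was 5.55, 7.10 and 6.05 in siSRSF2 libraries, against 4.48, 4.12 and 4.04 in WT libraries. The MMP14 to TIMP2 ratio overlapped between groups, at 0.0315, 0.0212 and 0.0228 in siSRSF2 libraries, against 0.0231, 0.0186 and 0.0178 in WT libraries. In every library TIMP2 transcripts greatly outnumbered those of MMP14. The summed level of TIMP1, TIMP2, TIMP3 and TIMP4 also overlapped, at 28.0 ± 0.532 FPKM in siSRSF2 and 29.0 ± 1.19 FPKM in WT (SD, n = 3 each).

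TGM2 (chromosome 20, 38127387 to 38166578, minus strand, 14 merged exons) encodes tissue transglutaminase, which cross-links matrix proteins and binds fibronectin and integrins at the cell surface. It had 30, 52 and 52 counts, or 1.10, 1.35 and 1.5 CPM, in siSRSF2 libraries, against 684, 686 and 653 counts, or 14.4, 15.0 and 13.8 CPM, in WT libraries. The nearest libraries were 9.17-fold apart. The log2 fold change was -3.43 (SE 0.13), a 10.8-fold lower level, and 14 genes of the whole table were called with a larger fall. TGM2 shares 4.90% of its exon length with RPRD1B on the opposite strand, which averaged 21.9 ± 1.14 CPM in siSRSF2 and 33.1 ± 0.766 CPM in WT (SD, n = 3 each). Of 9 other transglutaminase genes listed, TGM1 and TGM4 were tested, and 0 were called by edgeR, 0 had an unadjusted p under 0.05 there, 0 were called by DESeq2 and 0 by limma voom. With library totals alone, 1 was called. TGM1, the keratinocyte enzyme, averaged 1.93 ± 0.199 CPM in siSRSF2 and 1.45 ± 0.0851 CPM in WT, and TGM4, the prostate enzyme, 0.720 ± 0.338 CPM in siSRSF2 and 1.08 ± 0.347 CPM in WT (SD, n = 3 each).

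**Figure D3:**
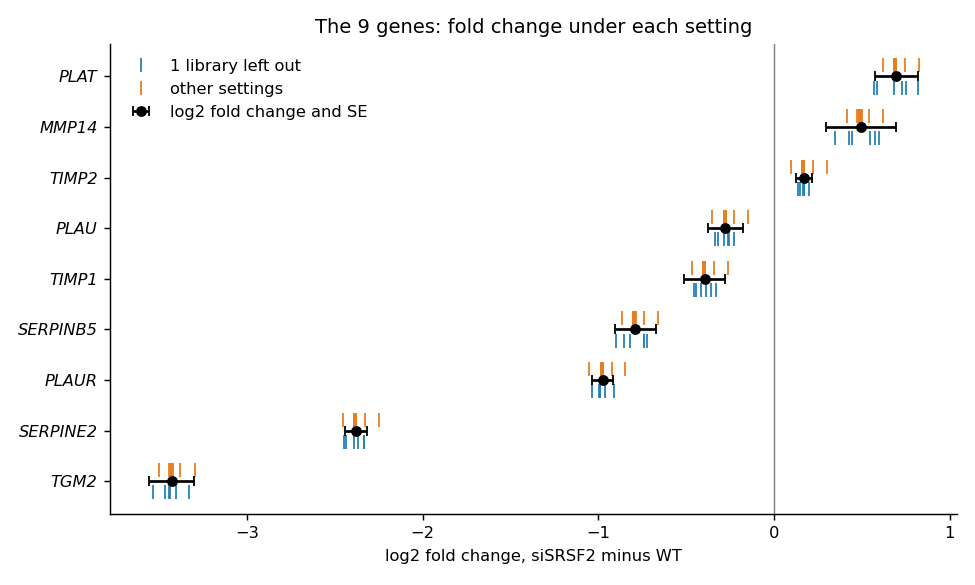
Log2 fold change (siSRSF2 minus WT) of each gene with its SE (black), with the values when 1 library is left out (blue) and under the other settings (orange). TGM2 (-3.43) and SERPINE2 (-2.38) lie far from 0 under each setting, while PLAU, TIMP1, TIMP2 and MMP14 lie between -0.47 and 0.62 under each setting.

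Per exon length, the order of the 9 genes differed between groups. In siSRSF2 cells TIMP2 was highest at 21.7 ± 0.775 FPKM, followed by PLAUR at 10.8 ± 1.08 FPKM and TIMP1 at 3.50 ± 0.308 FPKM (SD, n = 3 each). In WT cells PLAUR led at 21.3 ± 0.547 FPKM, ahead of TIMP2 at 19.3 ± 0.337 FPKM and SERPINE2 at 11.1 ± 0.795 FPKM (SD, n = 3 each). SERPINE2 ranked 5 in siSRSF2 and 3 in WT, and TGM2 ranked 9, the lowest, in siSRSF2 at 0.164 ± 0.0249 FPKM and 7 in WT at 1.79 ± 0.0779 FPKM (SD, n = 3 each). The ranges of neighbours in the order did not overlap in WT, and in siSRSF2 those of PLAT and SERPINB5 did.

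**Figure D4:**
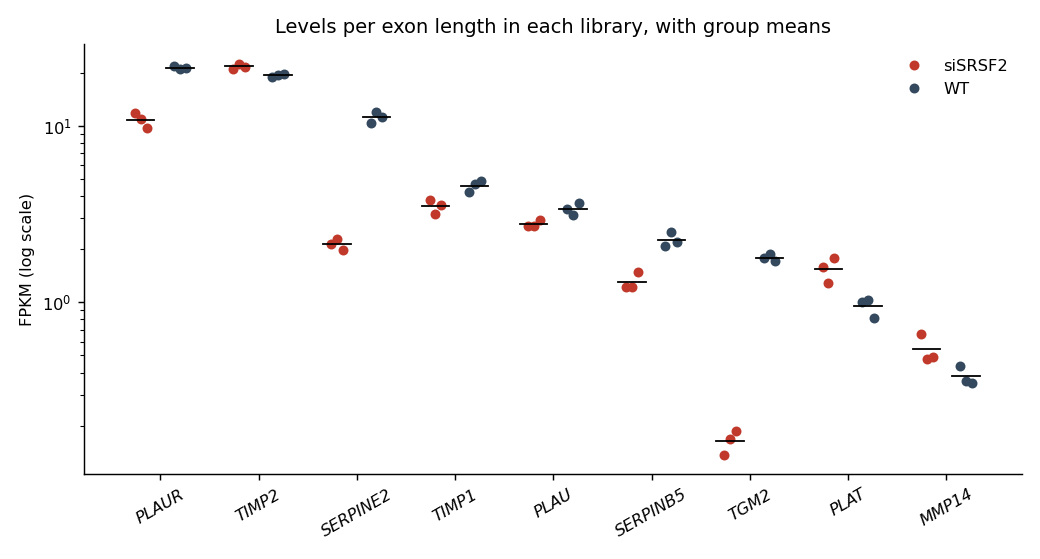
FPKM on a log axis for each gene in the 3 siSRSF2 libraries (left of each pair) and the 3 WT libraries (right), with group means as bars, ordered by the WT mean. PLAUR and TIMP2 have the highest FPKM in both groups, and TGM2 is at 0.164 FPKM in siSRSF2 against 1.79 FPKM in WT.

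Genes with the most similar profile over the 6 libraries were sought among 11846 protein-coding genes, by the root-mean-square difference of mean-centred log2 CPM. For TGM2 they were THBS1 (difference 0.20, log2 fold change -3.74), AMIGO2 (0.21, -3.76) and PCED1B (0.27, -3.18). THBS1 encodes the matrix glycoprotein thrombospondin-1. Exons of AMIGO2 and PCED1B overlap in part on opposite strands, so reads there cannot be told apart. For PLAUR they were TOR3A (0.03, -0.92), NEXN (0.04, -0.93) and DNAJC25 (0.04, -1.01), and for PLAU they were WHRN (0.02, -0.28), JMJD8 (0.03, -0.29) and BTG3 (0.03, -0.25), of which BTG3 was not called. With 2 groups of 3 libraries, the likeness is mostly a like difference between groups.

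Beyond the 9 genes, 23 others of the plasminogen system were listed, of which 16 were tested, 4 called higher and 6 lower (62.5% called, against 59.1% of all genes; median log2 fold change 0.07). Among those reaching 1 CPM in either group, the largest change was in LRP1, the endocytic receptor that clears activator and serpin complexes. LRP1 rose to 214 ± 19.1 CPM in siSRSF2, against 46.9 ± 1.43 CPM in WT (SD, n = 3 each), a log2 fold change of 2.19. VLDLR, a related receptor, rose to 17.3 ± 0.720 CPM in siSRSF2, against 10.8 ± 0.611 CPM in WT (log2 fold change 0.69). LYPD3, a relative of the urokinase receptor, fell to 8.18 ± 0.628 CPM in siSRSF2, against 19.6 ± 0.563 CPM in WT (-1.26). F3, the tissue factor that starts clotting, fell to 11.9 ± 0.558 CPM in siSRSF2, against 25.4 ± 1.87 CPM in WT (-1.10). The plasminogen receptor pair ANXA2 and S100A10 fell by 0.48 and 0.24 on the log2 scale. The zymogen gene PLG had 0, 0 and 4 counts in siSRSF2 libraries, against 2, 4 and 0 counts in WT libraries, and was not tested. A difference in transcripts of plasminogen itself was not detectable at this depth.

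Of 22 other matrix metalloproteinase genes, 12 were tested, 6 rose and 1, the collagenase gene MMP1, fell. Of those tested 58.3% were called, near the 59.1% of all genes, with a median log2 fold change of 0.32. MMP19 rose to 2.95 ± 0.344 CPM in siSRSF2, against 0.794 ± 0.135 CPM in WT (log2 fold change 1.89), and the membrane-type MMP24 to 11.4 ± 1.19 CPM in siSRSF2, against 4.89 ± 0.493 CPM in WT (1.23). MMP25, another membrane-type enzyme, was at 2.58 ± 0.487 CPM in siSRSF2 and 1.68 ± 0.427 CPM in WT (0.61), and it was no longer called without siSRSF2 replicate 1 (0.46), without WT replicate 1 (0.44) or without WT replicate 2 (0.58). MMP2, the gelatinase that MMP14 activates, rose to 22.1 ± 0.970 CPM in siSRSF2, against 18.0 ± 1.39 CPM in WT (0.29; SD, n = 3 each), and was not called in the test against 1.2-fold. The 6 membrane-type genes, MMP14 included, summed to 7.66, 8.13 and 7.77 FPKM in siSRSF2 libraries, against 5.34, 5.96 and 5.69 FPKM in WT libraries.

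All 10 tested genes among 11 further metalloproteinase inhibitors and MMP14 partners were called, 4 higher and 6 lower. Over all tested genes 30.1% were called higher and 29.0% lower. TIMP4 fell to 0.490 ± 0.0269 CPM in siSRSF2, against 1.04 ± 0.0545 CPM in WT (log2 fold change -1.09), and TIMP3, a matrix-bound inhibitor, to 11.8 ± 0.633 CPM in siSRSF2, against 20.8 ± 2.38 CPM in WT (-0.82). RECK, a membrane-anchored inhibitor of MMP14, rose to 9.10 ± 1.83 CPM in siSRSF2, against 4.72 ± 0.546 CPM in WT (0.95). The proprotein convertase FURIN, which activates MMP14, fell to 20.9 ± 0.146 CPM in siSRSF2, against 40.4 ± 2.05 CPM in WT (-0.95), whereas its relative PCSK6 rose (1.96; SD, n = 3 each).

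Among 20 substrates and cell-surface partners of these proteins, all tested, 5 rose and 13 fell. This made 90.0% called, against 59.1% of all genes, with a median log2 fold change of -0.43. Fibronectin, FN1, the chief matrix partner of TGM2, was at 180.1 ± 8.79 CPM in siSRSF2 and 185 ± 5.98 CPM in WT and was not called (-0.04; SD, n = 3 each). The laminin chain genes LAMA3 (1.30) and LAMB3 (0.71) rose. Integrin chains that bind vitronectin fell, ITGB5 to 11.5 ± 0.327 CPM in siSRSF2, against 36.0 ± 1.64 CPM in WT (-1.64), ITGAV to 56.9 ± 0.772 CPM in siSRSF2, against 99.5 ± 2.54 CPM in WT (-0.81), and ITGB3 to 0.655 ± 0.225 CPM in siSRSF2, against 1.55 ± 0.518 CPM in WT (-1.21). ADGRG1, an adhesion receptor that binds TGM2, fell to 25.3 ± 0.668 CPM in siSRSF2, against 51.2 ± 1.30 CPM in WT (-1.01; SD, n = 3 each).

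Of 18 genes listed as AP-1 and ETS factors, known regulators of PLAU, PLAUR and metalloproteinase genes, 5 were higher and 9 lower. The list also held EGR1, a zinc-finger factor of neither family, which was called lower. The called share was 77.8%, against 59.1% of all genes, and the median log2 fold change was -0.19. ETV5 (-4.54), ETV4 (-2.42) and the Fos-family gene FOSL1 (-2.27) fell, and the epithelial ETS gene ELF3 rose to 51.4 ± 1.46 CPM in siSRSF2, against 8.37 ± 1.47 CPM in WT (2.62; SD, n = 3 each). Members of the same family thus went both ways: FOS (2.03) and FOSL2 (0.96) rose, whereas JUN (-0.84) fell.

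**Figure D5:**
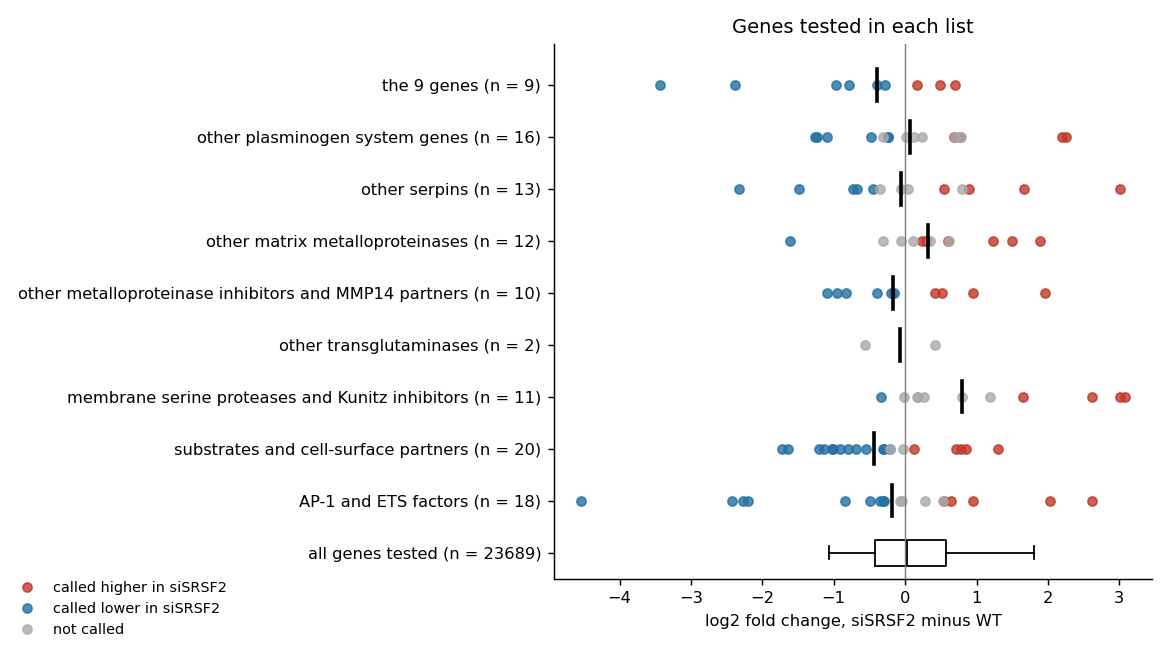
Log2 fold change (siSRSF2 minus WT) of each tested gene in the 9 genes and in each list, coloured by whether it was called higher (red), lower (blue) or not (grey), with list medians as bars; the box for all 23689 genes spans the quartiles and its whiskers the central 90%. The 9 genes have a median of -0.39, and the other matrix metalloproteinases one of 0.32.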

How the data were processed

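For each of 6 AGS libraries the authors deposited read counts by gene name, not normalized, with exon positions and exon length. The tools named, per the submitters' processing notes, are HISAT2 2.0.5 for alignment and featureCounts 1.5.0-p3 for counting, with mm10, a mouse build, as the genome. The table holds human names, and the positions of all 9 genes equal those of GENCODE release 29, so they are given as GRCh38. The sources used here do not give how strand and multi-mapping reads were handled.

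The counts went into edgeR 4.0.16 (R 4.3.3): filterByExpr (minimum count 10, 99.9% of counts kept), TMM scaling and the robust quasi-likelihood F test over 23689 genes, fitted on group alone, with p-values adjusted by Benjamini-Hochberg (threshold 0.05). The spread between replicates beyond counting error, which edgeR calls the common BCV, was 6.27%. SEs come from the fold change and its F statistic. FPKM is TMM-scaled CPM divided by exon length in kilobases. The pipeline was also run on simulated counts, in which few genes changed and every gene had the same dispersion. In the real data 59.1% of genes were called, so the simulation cannot test the scaling between groups. Within a group, counts of any pair of replicates varied beyond sampling error (chi-square of 3.83 to 8.75 per gene over genes with at least 20 counts), so none was merged.

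The 9 genes, the lists and the rule for named genes were chosen with earlier results of these data known. The rule named up to 4 called genes per list with the largest change, leaving out those under 1 CPM in both groups, and the 3 most similar genes for PLAU, PLAUR and TGM2. Some genes that the rule names are not reported here. Other list genes named were chosen after their values were seen: VLDLR, ANXA2, S100A10, PLG, SERPINB2, SERPINB4, MMP1, TIMP3, FN1, LAMB3, ITGAV, ADGRG1, FOS, FOSL2, JUN and EGR1, with TGM1 and TGM4. The lists are named in the report and in the closing section. Motifs were also chosen after the data were seen. Alternatives were DESeq2 1.42.0, limma 3.58.1 voom, RLE factors, library totals, other filters, a non-robust fit, a test against 1.2-fold, the replicate block and each library left out.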

Additional observations from a re-analysis of the deposited data

How the results depend on the processing

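No fold change of the 9 genes changed sign under any of the 15 alternatives, and TGM2, SERPINE2, PLAUR, SERPINB5 and PLAT were called under each. The 3 genes called higher became 1 both without a filter on low counts and in the test against a change of 1.2-fold. With library totals alone, which moved the median log2 fold change of all genes by 0.13 and made 60.9% of calls rises in place of 51.0%, PLAU (-0.14) and TIMP1 (-0.26) were not called. Without a filter MMP14 (0.42) and TIMP2 (0.10) were not called, and with DESeq2 MMP14 (0.49) was not. Against 1.2-fold, PLAU (-0.28), MMP14 (0.49), TIMP1 (-0.39) and TIMP2 (0.17) were not called. Leaving out 1 library, the values ranged from -0.34 to -0.23 for PLAU and from 0.35 to 0.60 for MMP14. The cause was not tested.

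Other serpins called lower numbered 5, and 3 with library totals, DESeq2, a mean CPM of at least 1, the 1.2-fold test, and without siSRSF2 replicate 2, WT replicate 2 or WT replicate 3. Other metalloproteinases called lower numbered 1, with 0 at a mean CPM of at least 1 and 2 without siSRSF2 replicate 2. Other transglutaminases called numbered 0, and 1 with library totals or a mean CPM of at least 1 (higher) or without siSRSF2 replicate 3 (lower). Same-numbered libraries did not deviate together (correlations 0.0133, -0.0472 and -0.0457), so the replicate numbers were not taken as pairs; with the replicate block 6927 genes were higher and 6770 lower, in place of 7129 and 6862. MMP14 and TGM2 in siSRSF2 libraries rest on 30 to 82 counts, which limits their precision.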

Other observations

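SERPINB5 lies in a row of clade B serpin genes on chromosome 18, whose members differed in direction. SERPINB8, an inhibitor of furin, lies at 63969925 to 64019779. It fell to 1.01 ± 0.317 CPM in siSRSF2, against 4.94 ± 0.114 CPM in WT (SD, n = 3 each), a log2 fold change of -2.32. SERPINB3, a squamous cell antigen at 63655197 to 63661963, rose to 1.76 ± 0.411 CPM in siSRSF2, against 0.554 ± 0.0840 CPM in WT (1.67), although reads could be split with its near-identical neighbour SERPINB4. SERPINB2, which encodes the activator inhibitor PAI-2, averaged 0.0611 CPM in siSRSF2 and 0.0432 CPM in WT and was not tested. Of 20 other serpins listed, 13 were tested, 4 rose and 5 fell. Among those tested 69.2% were called, against 59.1% of all genes, with a median log2 fold change of -0.06. SERPINH1, the collagen chaperone, fell to 48.1 ± 1.5 CPM in siSRSF2, against 79.7 ± 2.97 CPM in WT (-0.73), and SERPINF1, which encodes the anti-angiogenic factor PEDF, rose (0.90; SD, n = 3 each).

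Of 18 membrane and secreted serine proteases and Kunitz inhibitors, 11 were tested, 4 rose and 1 fell. The share called was 45.5%, under the 59.1% of all genes, and the median log2 fold change was 0.79. Of the 18, 12 were under 1 CPM in both groups. TMPRSS3 rose to 2.07 ± 0.254 CPM in siSRSF2, against 0.256 ± 0.0753 CPM in WT (3.01), and SPINT1, an inhibitor of matriptase and of hepatocyte growth factor activator, to 3.53 ± 0.374 CPM in siSRSF2, against 1.13 ± 0.0322 CPM in WT (1.65). PRSS23, the most abundant gene of this list, fell to 173 ± 3.32 CPM in siSRSF2, against 219 ± 1.2 CPM in WT (-0.34; SD, n = 3 each).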
